A study of Homo sapiens with 12 samples.

Results

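The genes of fatty acid and triglyceride synthesis were followed in HepG2C3A, a human hepatic cell line derived from a liver tumour, cultured in a microsystem or in Petri dishes with or without acetaminophen. The set was a list of 37 gene symbols chosen from general knowledge of the pathway, and each gene was read from the array probe set named by its symbol alone. Of the 37, 35 had such a probe set, all 35 passed the filter on dim probe sets, and they were tested among 13199 genes; ACSL3 and AGPAT3 were not analysed here. The 12 arrays formed 4 groups of 3, namely microsystem treated, microsystem control, Petri treated and Petri control. Culture lasted 96 h in each group, and acetaminophen, an analgesic that the liver converts in part to a reactive quinone imine, was present for 72 h of it in the treated groups. No source used here states a dose or describes the microsystem beyond its name, and all 4 groups are the same cell line with no other agent named. The labels do not tie replicates to independent cultures, and a p-value here reflects the spread among these samples alone, part or all of which may be technical.

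Fatty acids are built in the cytosol from acetyl-CoA, which ATP citrate lyase and acetyl-CoA synthetase supply, acetyl-CoA carboxylase commits to the pathway and fatty acid synthase polymerises into palmitate. Desaturases and elongases then modify the chains, acyl-CoA synthetases activate them, and a series of acyltransferases and phosphatases joins them to glycerol as triglyceride, which hepatocytes store in coated lipid droplets or export in lipoproteins. The transcription factor SREBP-1, encoded by SREBF1, is the main known activator of the lipogenic enzyme genes in liver, and ChREBP, encoded by MLXIPL, adds a glucose-sensing arm.

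Levels are given as the deposited log2 intensity of a gene's probe set, and a log2 difference of 1 is a doubling of signal. Array medians lay between 5.556 and 5.629 over 32321 probe sets. Of the markers of the hepatocyte-like line that had a probe set, 9 of 9 exceeded the array's 40th percentile on all 12 arrays. Of 8 markers of fibroblasts, leukocytes and endothelium, 4 were below it on every array, and 3 (COL1A1, COL1A2 and CD68) were above it on all 12. The mean log2 value of those 8 lay at 4.75 to 4.77 in microsystem treated, 4.77 to 4.81 in microsystem control, 4.84 to 4.90 in Petri treated and 4.90 to 4.94 in Petri control arrays. CD68, a macrophage marker counted in that mean, fell in the microsystem by 1.21 in treated and 1.05 in untreated cells. COL1A1 and COL1A2 did not pass, and the leukocyte marker PTPRC was below the 40th percentile on every array. Of the hepatocyte markers, ALB rose with culture by 0.23 in treated and 0.28 in untreated cells. TF differed by -0.25 and -0.35 and passed in both. KRT8 rose by 0.28 in treated and AFP by 0.49 in untreated cells, and the others passed in neither. The part of these markers in the results was not tested. Both microsystem arrays numbered 3 stood apart from the other arrays on the third principal component, at scores of -13.9 and -17.2, so results are also given without them. In total RNA, fewer cells that express a gene and less of its RNA per cell cannot be told apart.

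The first comparison asked how the microsystem differed from Petri dishes. In treated cells 20 of the 35 members rose in the microsystem, where 22.6% of all genes tested rose, and 5 fell, where 18.9% of all genes fell (25 called, 71.4%, against 41.4% of all genes). In untreated cells 19 members rose (26.5% of all genes) and 3 fell (18.3% of all genes), so that 22 were called (62.9%), against 44.9% of all genes. The microsystem and Petri groups did not overlap for 26 members in treated cells, where they did not for 52.9% of all genes, and for 23 members in untreated cells, against 52.4%. The members' median log2 difference was 0.37 in treated and 0.34 in untreated cells, against -0.00 and 0.01 over all genes tested. The 2 comparisons share no array, and 18 members rose and 2 fell in both, where 19.2% and 13.9% of all genes did so (20 in the same direction, against 33.2% of all genes). That is 80% of the 25 members called in treated cells and 90.9% of the 22 called in untreated cells; over all genes the same shares were 80.1% and 73.9%. Calls are those with an adjusted p under 0.05 in limma, by the Benjamini-Hochberg method over all genes tested. Without both microsystem arrays numbered 3, 20 members rose and 4 fell in treated cells, and 19 rose and 2 fell in untreated cells.

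**Figure D1:**
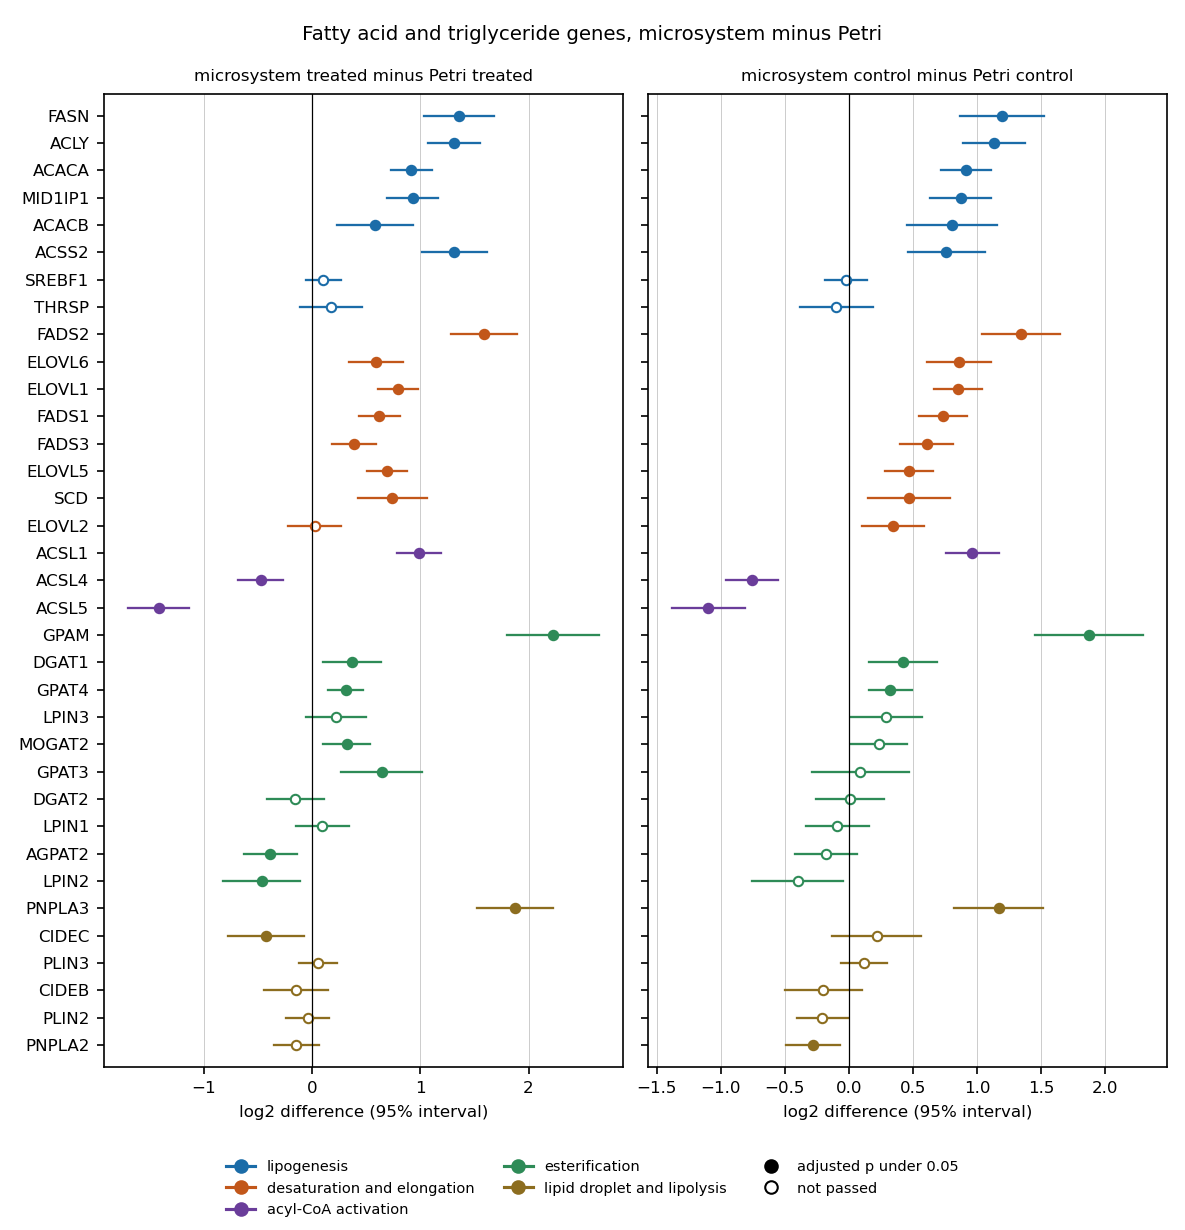
Log2 difference (x axis) of each of the 35 members, microsystem minus Petri, in treated cells on the left and in untreated cells on the right, with 95% intervals of the limma fit to 12 arrays. Filled points passed an adjusted p of 0.05. Lipogenesis and desaturation genes lie to the right of 0 in both panels apart from SREBF1 and THRSP, whose intervals cross it, and ELOVL2 in treated cells, while ACSL4 and ACSL5 lie to the left.

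Among the genes of fatty acid synthesis itself, 6 of 8 rose in both culture comparisons and 0 fell, where 19.2% of all genes rose in both and 13.9% fell in both. FASN (probe set 8019392), the fatty acid synthase, read 11.09, 11.03 and 10.47 in microsystem treated, 10.86, 10.92 and 10.73 in microsystem control, 9.49, 9.53 and 9.49 in Petri treated and 9.93, 9.48 and 9.52 in Petri control arrays. Both microsystem groups lay above both Petri groups without overlap, and Petri control 1 was the highest Petri array. FASN rose 2.56-fold in treated cells (log2 difference 1.36 ± 0.15 SE, adjusted p = 1.45e-05) and 2.28-fold in untreated cells (1.19 ± 0.15, adjusted p = 3.65e-05). ACLY, the citrate lyase that makes cytosolic acetyl-CoA, read 11.35, 11.43 and 11.08 in microsystem treated, 11.27, 11.17 and 11.01 in microsystem control, 9.87, 10.06 and 9.99 in Petri treated and 10.20, 9.94 and 9.91 in Petri control arrays. The cultures again did not overlap, and ACLY rose by 1.31 ± 0.11 in treated cells (adjusted p = 1.6e-06) and 1.13 ± 0.11 in untreated cells (adjusted p = 4.59e-06). ACSS2, which makes acetyl-CoA from acetate, read 10.09, 10.17 and 9.61 in microsystem treated, 9.84, 9.52 and 9.51 in microsystem control, 8.53, 8.73 and 8.66 in Petri treated and 9.01, 8.80 and 8.78 in Petri control arrays. The cultures did not overlap, and its rise was 1.31 ± 0.14 in treated cells (adjusted p = 9.26e-06) and 0.76 ± 0.14 in untreated cells (adjusted p = 0.000626).

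The carboxylases and their regulator moved the same way. MID1IP1, a protein that promotes polymerisation of acetyl-CoA carboxylase, read 7.34, 7.39 and 7.23 in microsystem treated, 7.53, 7.49 and 7.39 in microsystem control, 6.66, 6.36 and 6.15 in Petri treated and 6.63, 6.62 and 6.54 in Petri control arrays. All 6 microsystem arrays lay above the 6 Petri arrays, and it rose by 0.93 ± 0.11 in treated and 0.87 ± 0.11 in untreated cells (adjusted p = 2.29e-05 and 3.36e-05). ACACA, the cytosolic carboxylase of fatty acid synthesis, averaged 8.55 ± 0.11 in microsystem treated and 7.63 ± 0.05 in Petri treated arrays, and 8.53 ± 0.08 in microsystem control and 7.61 ± 0.14 in Petri control arrays (SD, n = 3 each). Its rise was 0.92 ± 0.09 SE in treated and 0.91 ± 0.09 in untreated cells. ACACB, whose carboxylase sits at mitochondria and restrains fatty acid oxidation, rose by 0.58 ± 0.16 in treated and 0.80 ± 0.16 in untreated cells (adjusted p = 0.0113 and 0.00136), and its call in treated cells was lost without Petri treated 2 (adjusted p = 0.0561).

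SREBF1 and THRSP, the other 2 genes of this step, did not pass. SREBF1 read 7.25, 7.19 and 7.13 in microsystem treated, 7.20, 7.20 and 7.18 in microsystem control, 7.01, 7.08 and 7.16 in Petri treated and 7.13, 7.22 and 7.31 in Petri control arrays. All 12 values lay within 7.01 and 7.31, and the culture groups overlapped in both comparisons. The log2 difference was 0.10 in treated cells (95% interval -0.06 to 0.27, adjusted p = 0.296) and -0.03 in untreated cells (-0.19 to 0.14, adjusted p = 0.807). THRSP, a lipogenic cofactor related to MID1IP1, exceeded the array's 40th percentile on 8 of 12 arrays and differed by 0.17 ± 0.13 in treated and -0.10 ± 0.13 in untreated cells (adjusted p = 0.32 and 0.563).

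Because these enzyme genes moved together, their promoters were read in RefSeq's tables (GRCh38.p14), 250 bases before to 50 after each annotated start. Both strands were searched for the NF-Y box CCAAT, bound by a factor that acts with SREBP at many lipogenic promoters, for the sterol regulatory element TCACNCCAC and for the E-box CACGTG, a motif of basic helix-loop-helix factors. FASN, PNPLA3, DGAT1, DGAT2, GPAT4, MOGAT2 and LPIN3 were not included. Of the 28 tested members with a promoter in the tables, 14 had risen in both culture comparisons, and 12 of these held an NF-Y box in at least 1 promoter. Of the other 14, 3 did. Among all genes in RefSeq's set, 39.7% held an NF-Y box in at least 1 promoter, and 34.6% of 35116 promoters held one, against 37.8% of the 45 promoters of tested members. The sterol regulatory element was found in 4 members (ACSL1, CIDEC, MID1IP1 and PNPLA2), 2 of the 14 that rose in both and 2 of the other 14. It was in 8.89% of the members' promoters, against 1.13% of all promoters. The E-box was in 3 members (ELOVL5, LPIN2 and PLIN2), 1 of the 14 that rose in both and 2 of the other 14. It was in 6.67% of the members' promoters, against 7.26% of all. The motifs were chosen with the values known, and a match is a description of letters and not evidence of binding. The 250 bases before the start are printed below for SREBF1 and for 3 of the 6 described genes that rose in both comparisons and hold an NF-Y box in that stretch (SCD, ACSS2, ACLY, ACSL1, MID1IP1 and ELOVL1). GPAM, FADS2 and ELOVL6, which also rose in both, hold none in it. The sequences run 5′ to 3′ on the gene's strand, with NF-Y boxes (CCAAT or its reverse ATTGG) and the sterol element (here GTGGGGTGA on the reverse strand) in capitals. No box overlaps the sterol element in them. They are chr10:100346983-100347232 on the plus strand for SCD, chr17:41919023-41919272 on the minus strand for ACLY, chrX:38801209-38801458 on the plus strand for MID1IP1 and chr17:17836987-17837236 on the minus strand for SREBF1.
SCD: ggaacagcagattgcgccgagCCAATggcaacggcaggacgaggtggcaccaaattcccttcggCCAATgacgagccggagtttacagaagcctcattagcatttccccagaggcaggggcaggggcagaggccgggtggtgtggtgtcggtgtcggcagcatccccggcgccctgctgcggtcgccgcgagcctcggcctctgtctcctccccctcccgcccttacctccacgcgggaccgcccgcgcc
ACLY: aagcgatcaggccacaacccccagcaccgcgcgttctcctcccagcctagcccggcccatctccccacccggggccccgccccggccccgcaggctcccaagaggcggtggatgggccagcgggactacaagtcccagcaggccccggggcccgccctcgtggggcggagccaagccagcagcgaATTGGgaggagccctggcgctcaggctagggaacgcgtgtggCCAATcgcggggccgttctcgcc
MID1IP1: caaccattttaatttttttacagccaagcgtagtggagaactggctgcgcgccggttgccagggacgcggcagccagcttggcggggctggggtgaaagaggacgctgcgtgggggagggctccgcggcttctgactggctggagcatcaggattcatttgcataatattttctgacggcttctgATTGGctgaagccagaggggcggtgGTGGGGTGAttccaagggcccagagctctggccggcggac
SREBF1: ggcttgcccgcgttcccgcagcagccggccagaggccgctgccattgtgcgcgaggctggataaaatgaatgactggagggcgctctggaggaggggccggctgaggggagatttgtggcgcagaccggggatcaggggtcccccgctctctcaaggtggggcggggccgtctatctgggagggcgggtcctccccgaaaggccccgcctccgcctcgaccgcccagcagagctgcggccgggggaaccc
The stretch before SCD holds 2 NF-Y boxes, at 229 to 225 and 186 to 182 bases before the start. ACLY has 2, at 65 to 61 and 23 to 19. MID1IP1 has 1 at 65 to 61, with the sterol element at 40 to 32. The stretch before SREBF1 holds none of the 3 motifs. It belongs to the 1 SREBF1 promoter in RefSeq's set, and any other start of the gene was not searched. SCD and MID1IP1 also have 1 promoter there. ACLY has 2 promoters, and the one with the most NF-Y boxes before its start was printed. The printed genes were picked from those holding a box, by no stated rule. A contrast of their sequences with that of SREBF1 was not tested.

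**Figure D2:**
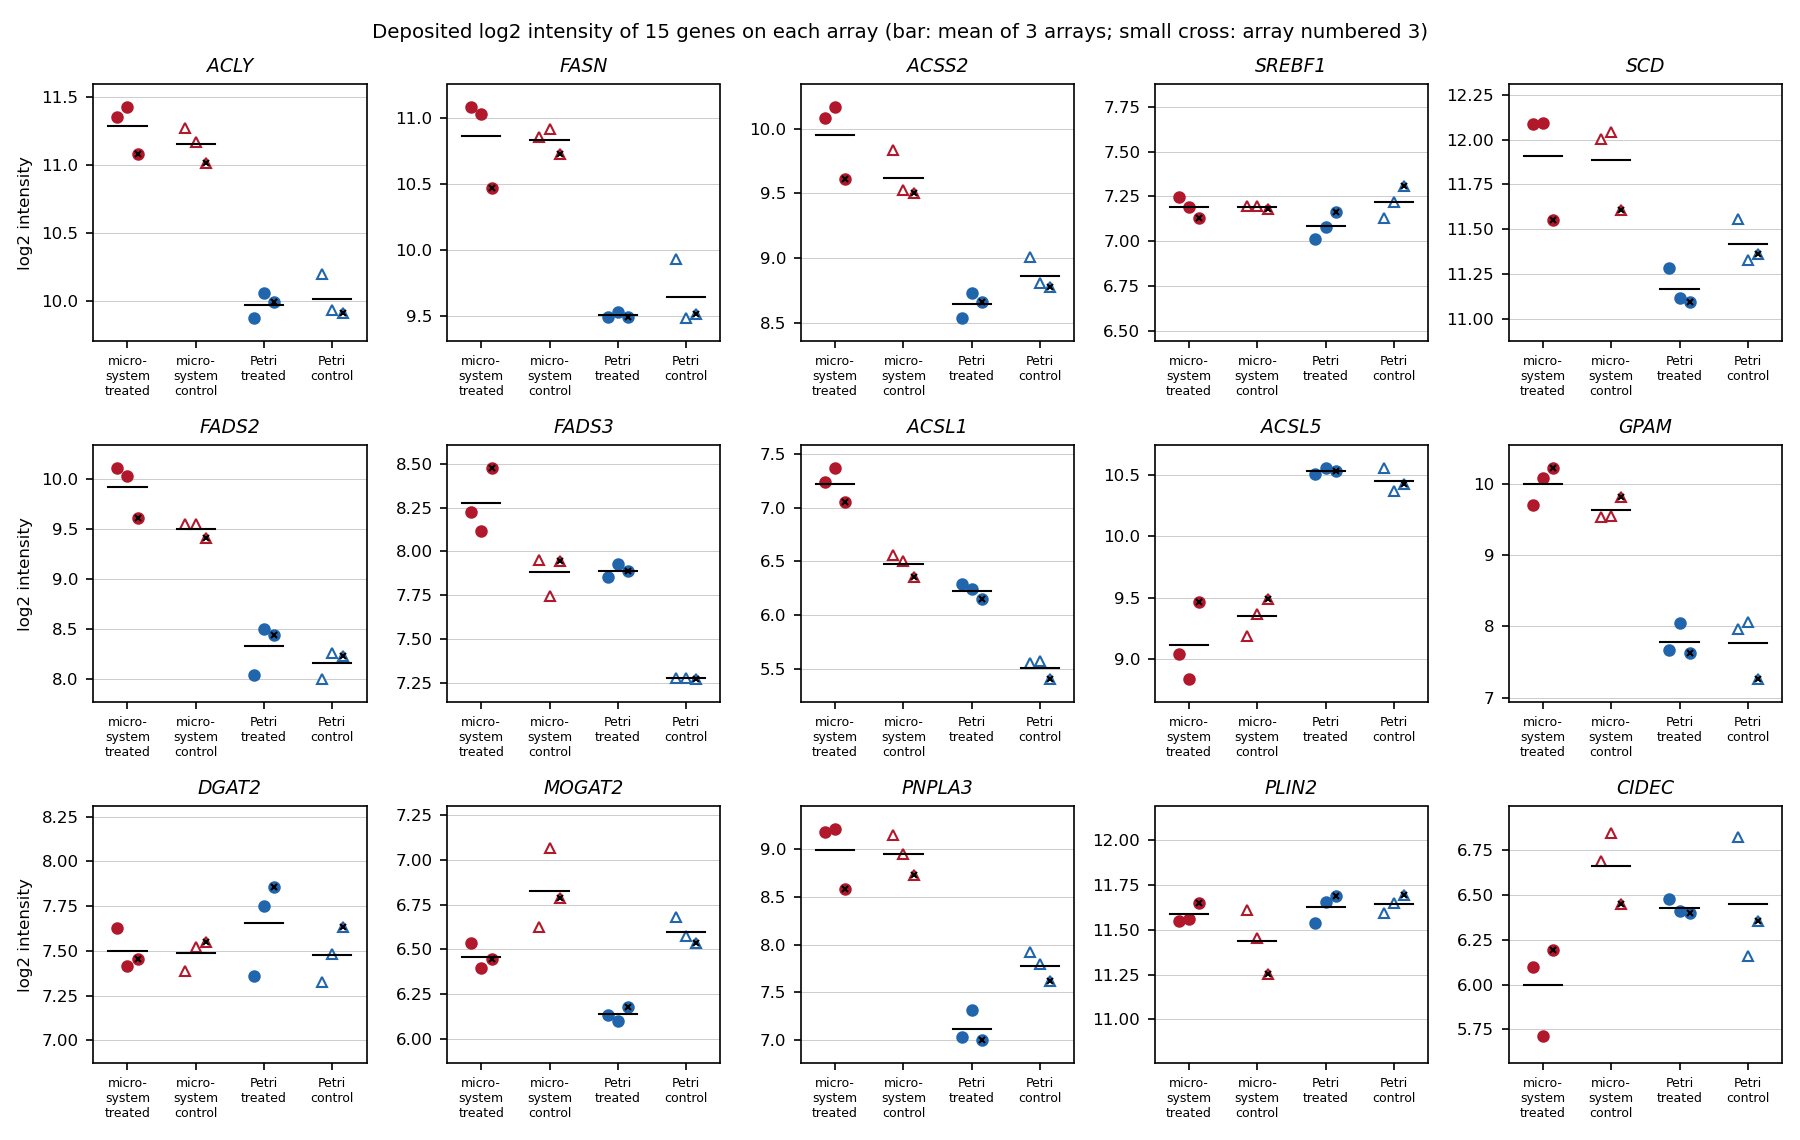
Deposited log2 intensity (y axis) of 15 members on each of the 12 arrays, by group, with bars at the mean of 3 arrays and small crosses on arrays numbered 3. Red points (microsystem) lie above blue points (Petri) for ACLY, FASN, ACSS2, FADS2 and GPAM and below them for ACSL5, while the groups overlap for SREBF1, DGAT2 and PLIN2.

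Of the genes of chain desaturation and elongation, 7 of 8 rose in treated microsystem cells and 8 of 8 in untreated ones, and 0 fell. Of all genes 22.6% and 26.5% rose in these comparisons, and 18.9% and 18.3% fell. FADS2, the delta-6 desaturase of polyunsaturated fatty acids, read 10.11, 10.03 and 9.61 in microsystem treated, 9.55, 9.55 and 9.42 in microsystem control, 8.04, 8.50 and 8.44 in Petri treated and 7.997, 8.26 and 8.23 in Petri control arrays. The lowest microsystem array lay above the highest Petri array. FADS2 rose 3.01-fold in treated cells (log2 difference 1.59 ± 0.14 SE, adjusted p = 2.46e-06) and 2.54-fold in untreated cells (1.34 ± 0.14, adjusted p = 8.27e-06). Its chromosomal neighbours FADS1, the delta-5 desaturase, and FADS3 also rose, by 0.62 ± 0.09 and 0.39 ± 0.09 in treated and 0.73 ± 0.09 and 0.61 ± 0.09 in untreated cells.

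SCD, the stearoyl-CoA desaturase that makes oleate, read 12.09, 12.09 and 11.55 in microsystem treated, 12.00, 12.04 and 11.60 in microsystem control, 11.28, 11.12 and 11.09 in Petri treated and 11.56, 11.33 and 11.36 in Petri control arrays. In both microsystem groups array 3 was the lowest, and in untreated cells it lay just above Petri control 1. SCD rose by 0.74 ± 0.15 in treated cells (adjusted p = 0.00136) and 0.47 ± 0.15 in untreated cells (adjusted p = 0.0207), and without both arrays numbered 3 by 0.92 and 0.61 (adjusted p = 1.68e-05 and 0.000328). In untreated cells it missed the threshold when Petri control 2 or 3 or microsystem control 1 or 2 was left out, with adjusted p up to 0.0865.

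Of the elongases, ELOVL6, which extends palmitate to stearate, read 6.84, 6.87 and 6.91 in microsystem treated, 7.25, 7.45 and 7.59 in microsystem control, 6.15, 6.45 and 6.25 in Petri treated and 6.74, 6.62 and 6.35 in Petri control arrays. Within each treatment the cultures did not overlap, and the highest group was microsystem control. It rose by 0.59 ± 0.12 in treated and 0.86 ± 0.12 in untreated cells (adjusted p = 0.00116 and 5.82e-05). ELOVL1, which makes very long saturated and monounsaturated chains, read 9.49, 9.47 and 9.30 in microsystem treated, 9.29, 9.32 and 9.05 in microsystem control, 8.63, 8.60 and 8.64 in Petri treated and 8.37, 8.32 and 8.42 in Petri control arrays. All 6 microsystem arrays were the higher ones, and its rise was 0.79 ± 0.09 in treated and 0.85 ± 0.09 in untreated cells. ELOVL5, an elongase of polyunsaturated chains, rose by 0.69 ± 0.09 and 0.47 ± 0.09 in the same comparisons. ELOVL2, which acts on longer polyunsaturated chains, rose by 0.34 ± 0.11 in untreated cells (adjusted p = 0.0251; lost when Petri control 2 or 3 or microsystem control 2 was left out, with a difference down to 0.23) and differed by 0.03 ± 0.11 in treated cells (adjusted p = 0.878).

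The acyl-CoA synthetases, which activate free fatty acids, split by member. ACSL5, an isoform of mitochondria and endoplasmic reticulum, read 9.04, 8.84 and 9.47 in microsystem treated, 9.19, 9.37 and 9.49 in microsystem control, 10.51, 10.56 and 10.54 in Petri treated and 10.56, 10.37 and 10.43 in Petri control arrays. All 6 microsystem arrays lay below the 6 Petri arrays. ACSL5 fell to 0.374 times the Petri level in treated cells (log2 difference -1.42 ± 0.13, adjusted p = 3.52e-06) and to 0.467 times in untreated cells (-1.10 ± 0.13, adjusted p = 2.43e-05). ACSL4, which prefers arachidonate, read 9.89, 10.08 and 9.95 in microsystem treated, 9.79, 9.77 and 9.99 in microsystem control, 10.45, 10.54 and 10.37 in Petri treated and 10.76, 10.51 and 10.54 in Petri control arrays. It too was lower on all 6 microsystem arrays, and it fell by 0.48 in treated and 0.76 in untreated cells (SE 0.09 in both). ACSL1, a major hepatic isoform, went the other way, with 7.24, 7.37 and 7.05 in microsystem treated, 6.56, 6.51 and 6.36 in microsystem control, 6.29, 6.25 and 6.15 in Petri treated and 5.55, 5.58 and 5.40 in Petri control arrays. The 4 groups of ACSL1 did not overlap, and the rise with culture was 0.99 ± 0.10 in treated and 0.96 ± 0.10 in untreated cells (adjusted p = 4.43e-06 and 4.83e-06).

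Of the 10 esterification genes 5 rose and 2 fell in treated cells (50% and 20%, against 22.6% and 18.9% of all genes). In untreated cells 3 rose and 0 fell (30% rose, against 26.5% of all genes, and 18.3% of all genes fell). The share called in untreated cells was 30%, against 44.9% of all genes. The largest change was at the first step. GPAM, the glycerol-3-phosphate acyltransferase of the outer mitochondrial membrane that starts glycerolipid synthesis, read 9.71, 10.08 and 10.23 in microsystem treated, 9.54, 9.55 and 9.82 in microsystem control, 7.66, 8.04 and 7.62 in Petri treated and 7.96, 8.07 and 7.25 in Petri control arrays. The lowest microsystem array lay well above the highest Petri array. GPAM had the largest culture difference of the 35 members, 4.69-fold in treated cells (2.23 ± 0.20, adjusted p = 2.18e-06) and 3.66-fold in untreated cells (1.87 ± 0.20, adjusted p = 7.77e-06). The endoplasmic reticulum acyltransferase GPAT4 rose by 0.31 ± 0.08 in treated and 0.32 ± 0.08 in untreated cells. GPAT3, which catalyses the same reaction, read 8.08, 7.94 and 8.62 in microsystem treated, 8.18, 7.66 and 8.12 in microsystem control, 7.45, 7.50 and 7.75 in Petri treated and 7.92, 7.70 and 8.07 in Petri control arrays. It rose in treated cells (0.64 ± 0.18, adjusted p = 0.00991; 0.44 without both microsystem arrays numbered 3) and overlapped in untreated cells (0.09 ± 0.18, adjusted p = 0.708).

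The next enzymes of the route to triglyceride included the 2 esterification genes that fell, both in treated cells. AGPAT2, a lysophosphatidate acyltransferase, fell by 0.38 in treated cells (SE 0.11, adjusted p = 0.0147, lost without Petri treated 3 or microsystem treated 2) and differed by -0.18 ± 0.11 in untreated cells. Of the 3 lipins, the phosphatidate phosphatases that make diacylglycerol, LPIN2 read 8.58, 8.74 and 8.29 in microsystem treated, 8.71, 8.51 and 8.12 in microsystem control, 9.24, 8.89 and 8.87 in Petri treated and 9.11, 8.72 and 8.71 in Petri control arrays. Its groups were separate in both treatments, in untreated cells by the narrow gap between microsystem control 1 and Petri control 3. In untreated cells it differed by -0.40 ± 0.17 (adjusted p = 0.064), and passed there without microsystem control 1 and with a replicate block over all arrays. LPIN2 fell by 0.47 in treated cells (SE 0.17, adjusted p = 0.0372; adjusted p = 0.0769 and a difference of -0.35 without both microsystem arrays numbered 3, and lost too without Petri treated 1, microsystem treated 1 or microsystem treated 3), while LPIN1 and LPIN3 passed in no comparison.

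The last acylation, of diacylglycerol, is shared by DGAT1 and DGAT2. DGAT2 read 7.63, 7.42 and 7.46 in microsystem treated, 7.39, 7.52 and 7.55 in microsystem control, 7.36, 7.75 and 7.86 in Petri treated and 7.33, 7.48 and 7.63 in Petri control arrays. These groups overlapped, with differences of -0.15 in treated cells (95% interval -0.42 to 0.11) and 0.01 in untreated cells (-0.26 to 0.27). DGAT1 rose by 0.37 ± 0.12 in treated cells (adjusted p = 0.0277) and 0.42 ± 0.12 in untreated cells (adjusted p = 0.0128). The first of these calls was lost without Petri treated 1, Petri treated 2 or microsystem treated 1 (adjusted p up to 0.122), and the second without microsystem control 2, where the difference was 0.28 (adjusted p = 0.0626). MOGAT2, a monoacylglycerol acyltransferase known mainly from intestine, rose by 0.32 ± 0.10 in treated cells (adjusted p = 0.0207, lost without Petri treated 2 or microsystem treated 1) and differed by 0.23 ± 0.10 in untreated cells (adjusted p = 0.077).

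Of the 6 droplet and lipolysis genes 1, PNPLA3, rose in both comparisons, where 19.2% of all genes did so, and 0 fell in both, where 13.9% did. PNPLA3, a droplet-bound acylhydrolase known as a target of SREBP-1 in liver, read 9.18, 9.21 and 8.58 in microsystem treated, 9.15, 8.95 and 8.73 in microsystem control, 7.03, 7.32 and 6.995 in Petri treated and 7.92, 7.80 and 7.62 in Petri control arrays. All 6 microsystem arrays were above the 6 Petri arrays, and Petri treated was the lowest group. PNPLA3 rose 3.67-fold in treated cells (1.88 ± 0.16, adjusted p = 1.85e-06) and 2.25-fold in untreated cells (1.17 ± 0.16, adjusted p = 7.33e-05). PNPLA2, the adipose triglyceride lipase, read 8.71, 8.65 and 8.41 in microsystem treated, 8.36, 8.47 and 8.29 in microsystem control, 8.85, 8.61 and 8.75 in Petri treated and 8.72, 8.58 and 8.67 in Petri control arrays. The cultures overlapped in treated cells and not in untreated cells. PNPLA2 fell by 0.28 in untreated cells (SE 0.10, adjusted p = 0.0293) and differed by -0.14 ± 0.10 in treated cells, and its call did not hold when Petri control 1 or 3 or microsystem control 1 or 3 was left out (adjusted p up to 0.09), nor with both microsystem arrays numbered 3 left out (difference -0.24, adjusted p = 0.0541).

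The droplet coat genes PLIN2 and PLIN3 did not pass with culture. PLIN2, the main coat protein of hepatocyte droplets, read 11.55, 11.56 and 11.65 in microsystem treated, 11.61, 11.45 and 11.25 in microsystem control, 11.54, 11.66 and 11.69 in Petri treated and 11.59, 11.65 and 11.70 in Petri control arrays. All groups overlapped, with microsystem control 3 the lowest array. It differed by -0.04 ± 0.09 in treated and -0.21 ± 0.09 in untreated cells (adjusted p = 0.756 and 0.0811). PLIN3 and CIDEB, which acts in droplet fusion and lipoprotein lipidation, had differences of 0.05 and -0.15 in treated and 0.12 and -0.20 in untreated cells, and neither passed. CIDEC, which promotes droplet fusion, fell by 0.43 in treated cells (SE 0.16) at an adjusted p = 0.0492, and the call was lost without any of 8 single arrays (Petri treated 1, 2 or 3, Petri control 3, microsystem treated 1 or 2, microsystem control 1 or 2), with the difference at -0.28 without microsystem treated 2.

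The second comparison asked what acetaminophen changed within each culture. In the microsystem 5 members rose, where 6.39% of all genes tested rose, and 3 fell, where 2.67% of all genes fell (8 called, 22.9%, against 9.06% of all genes). In Petri dishes 4 members rose (8.38% of all genes) and 2 fell (1.98% of all genes), so that 6 were called (17.1%), against 10.4% of all genes. Treated and control arrays did not overlap for 10 members in the microsystem and 12 in Petri dishes (28.6% and 34.3%), against 27.6% and 34.5% of all genes. Median log2 differences over the 35 members were 0.04 and 0.01 in the microsystem and in Petri dishes, against -0.01 and 0.01 over all genes. The 2 treatment comparisons share no array, but each gene's spread was estimated over all 12 arrays for both, so their calls are not independent. FADS1, FADS3, ACSL1 and GPAT4 rose in both, where 3.66% of all genes did so, and MOGAT2 fell in both, where 0.515% of all genes did so (5 in the same direction, against 4.17% of all genes). The microsystem count depended on single arrays, with 3 members changed without microsystem treated 2, 4 without microsystem control 2 and 4 without both microsystem arrays numbered 3. In Petri dishes 4 members changed without Petri treated 2, Petri treated 3 or Petri control 2. These counts come from a fit without a replicate block. With the replicate number as a block within each culture, 9 members passed in Petri dishes (5 rose and 4 fell). The share of all genes in that fit is not given here.

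**Figure D3:**
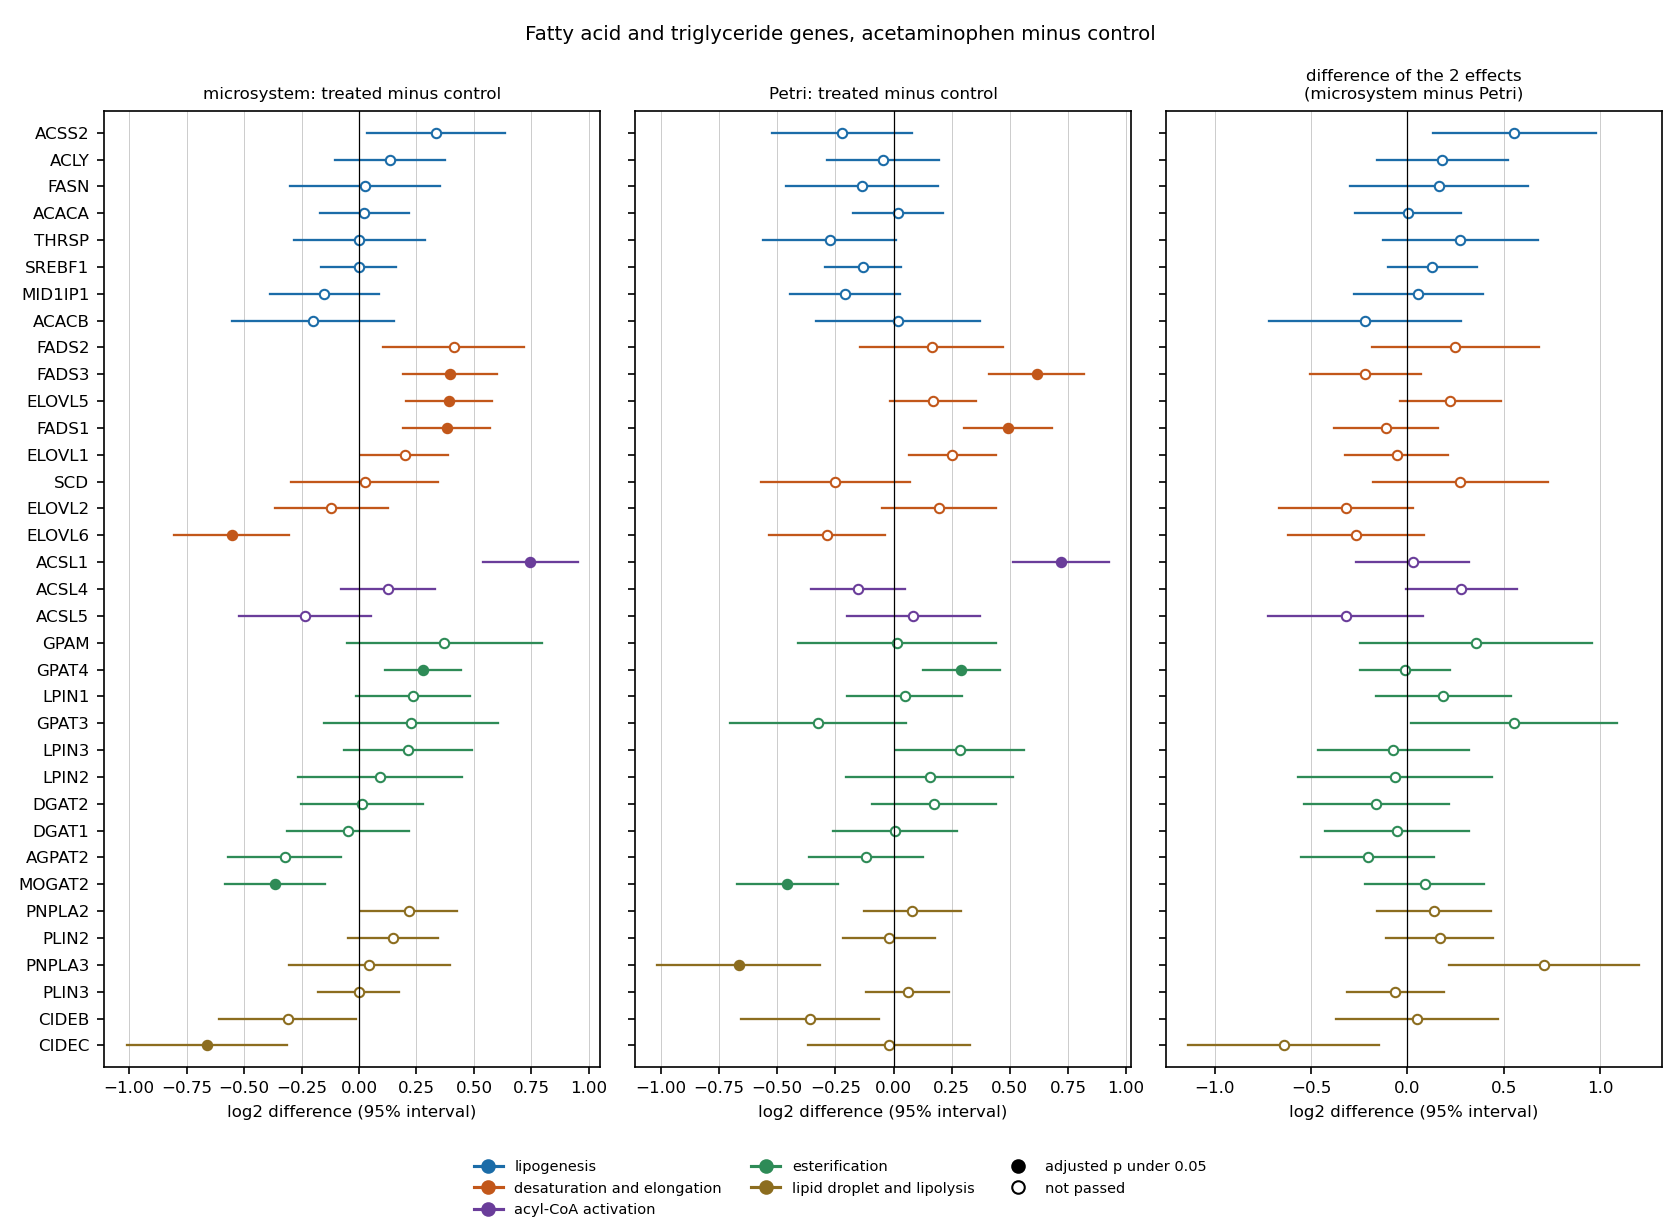
Log2 difference (x axis) of each member, treated minus control, in the microsystem (left) and in Petri dishes (middle), and the difference of the 2 effects (right), with 95% intervals and filled points at an adjusted p under 0.05. The fit had no replicate block. FADS1, FADS3, ACSL1, GPAT4 and MOGAT2 are filled in both cultures, and no point is filled on the right.

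ACSL1 had the largest rise of the members in both cultures, 1.68-fold in the microsystem (0.75 ± 0.10, adjusted p = 0.0007) and 1.65-fold in Petri dishes (0.72 ± 0.10, adjusted p = 0.000508). Its treated arrays lay above its control arrays without overlap in each culture, as the array values given earlier show, and both calls held without any single array. FADS3 read 8.23, 8.12 and 8.48 in microsystem treated and 7.95, 7.74 and 7.94 in microsystem control arrays, and 7.85, 7.93 and 7.89 in Petri treated and 7.28, 7.28 and 7.27 in Petri control arrays. Treated and control arrays did not overlap in either culture. FADS3 rose by 0.40 ± 0.09 in the microsystem (adjusted p = 0.0212) and 0.62 ± 0.09 in Petri dishes (adjusted p = 0.00136). FADS1 read 10.30, 10.29 and 10.15 in microsystem treated and 9.78, 9.96 and 9.85 in microsystem control arrays, and 9.49, 9.72 and 9.66 in Petri treated and 9.03, 9.19 and 9.17 in Petri control arrays. These groups were separate too, and FADS1 rose by 0.38 ± 0.09 in the microsystem (adjusted p = 0.0183) and 0.49 ± 0.09 in Petri dishes (adjusted p = 0.0034). The microsystem call of FADS3 was lost without microsystem treated 3, microsystem control 2 or both arrays numbered 3 (adjusted p up to 0.0877), and that of FADS1 without microsystem treated 1 or microsystem treated 2 (adjusted p up to 0.0752). The third desaturase gene of this cluster, FADS2, differed by 0.41 ± 0.14 in the microsystem (adjusted p = 0.0876) and 0.16 ± 0.14 in Petri dishes (adjusted p = 0.495).

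Of the 4 elongases 1, ELOVL5, rose and 1, ELOVL6, fell with treatment in the microsystem, where 6.39% of all genes rose and 2.67% fell. ELOVL5 rose by 0.39 ± 0.09 (adjusted p = 0.0144; 0.0709 without microsystem treated 2), with 11.22, 11.29 and 11.07 in microsystem treated and 10.79, 10.91 and 10.70 in microsystem control arrays. ELOVL6 fell by 0.55 (SE 0.12, adjusted p = 0.0117), with a difference of -0.49 that did not pass once both microsystem arrays numbered 3 were left out (adjusted p = 0.0632). In Petri dishes the same genes differed by 0.17 ± 0.09 and -0.29 ± 0.12 (adjusted p = 0.234 and 0.136). ELOVL1 differed by 0.20 ± 0.09 in the microsystem and 0.25 ± 0.09 in Petri dishes (adjusted p = 0.172 and 0.0857), and ELOVL2 by -0.12 ± 0.11 and 0.20 ± 0.11 (adjusted p = 0.528 and 0.296).

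Of the esterification genes, MOGAT2 read 6.54, 6.40 and 6.45 in microsystem treated and 6.63, 7.07 and 6.79 in microsystem control arrays, and 6.14, 6.10 and 6.18 in Petri treated and 6.68, 6.57 and 6.54 in Petri control arrays. Treated arrays were the lower ones in both cultures without overlap. MOGAT2 fell by 0.37 in the microsystem (SE 0.10, adjusted p = 0.0383) and 0.46 in Petri dishes (SE 0.10, adjusted p = 0.0118), and without microsystem control 2 the microsystem difference was -0.25. GPAT4 rose by 0.28 ± 0.08 in the microsystem (adjusted p = 0.0392) and 0.29 ± 0.08 in Petri dishes (adjusted p = 0.0283). Both calls depended on single arrays. The Petri call of GPAT4 was lost without any of the 6 Petri arrays (adjusted p up to 0.103) and that of MOGAT2 without Petri treated 2. The microsystem calls of both were lost without Petri treated 2 or 3, Petri control 2, microsystem treated 2 or 3, microsystem control 2 or 3, or both microsystem arrays numbered 3, that of GPAT4 also without Petri control 3, and that of MOGAT2 also without microsystem treated 1 (adjusted p up to 0.201).

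Among droplet genes CIDEC passed in the microsystem and PNPLA3 in Petri dishes, and neither passed the test of the difference between cultures given later. CIDEC read 6.10, 5.71 and 6.19 in microsystem treated and 6.69, 6.85 and 6.45 in microsystem control arrays, and 6.48, 6.41 and 6.40 in Petri treated and 6.83, 6.16 and 6.36 in Petri control arrays. It fell by 0.66 in the microsystem (SE 0.16, adjusted p = 0.0237; the call was lost without microsystem treated 2 or microsystem control 2) and differed by -0.02 ± 0.16 in Petri dishes, where its groups overlapped. PNPLA3 fell by 0.67 in Petri dishes (SE 0.16, adjusted p = 0.0198), with 3 treated arrays below the 3 control arrays, and differed by 0.04 ± 0.16 in the microsystem. In the fit without a block, the Petri call of PNPLA3 did not hold when Petri treated 1 or 3 or Petri control 1 or 2 was left out (adjusted p up to 0.0825). With all arrays and the replicate number as a block within each culture, PNPLA3 passed in Petri dishes at an adjusted p of 0.00177. The other Petri calls of the main fit passed with that block too. Same-numbered Petri arrays deviated together from their group means, and with the replicate number as a block within each culture SCD (-0.25, adjusted p = 0.0366), ELOVL1 (0.25, adjusted p = 0.033) and CIDEB (-0.36, adjusted p = 0.0175) also passed in Petri dishes, against adjusted p = 0.309, 0.0857 and 0.117 without the block.

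Of the genes of fatty acid synthesis, 0 of 8 passed for treatment in either culture by limma, against 9.06% of all genes in the microsystem and 10.4% in Petri dishes. At an unadjusted p under 0.05 there were 1 of 8 in the microsystem and 0 of 8 in Petri dishes. Of the 13199 genes tested, 3408 and 3471 were under it. The count of 0 past the adjusted threshold depended on single arrays: ACSS2 passed in the microsystem without microsystem treated 3, and in Petri dishes MID1IP1 passed without Petri treated 1 and THRSP without Petri control 1. All 3 also passed with array weights (lowest adjusted p over these alternatives 0.0256 for ACSS2, 0.0244 for MID1IP1 and 0.00949 for THRSP). FASN differed by 0.03 in the microsystem (95% interval -0.30 to 0.35) and -0.14 in Petri dishes (-0.46 to 0.19). SREBF1 differed by -0.00 in the microsystem (-0.16 to 0.16) and -0.13 in Petri dishes (-0.30 to 0.03). SCD differed by 0.02 in the microsystem (-0.30 to 0.35), DGAT2 by 0.01 in the microsystem and 0.18 in Petri dishes, and PLIN2 by 0.15 in the microsystem and -0.02 in Petri dishes. GPAM, with the largest culture difference, differed by 0.37 ± 0.20 in the microsystem and 0.01 ± 0.20 in Petri dishes with treatment (adjusted p = 0.252 and 0.973).

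The third comparison asked whether the treatment effect depended on culture. Of the 35 members 0 passed the test of the difference of effects in limma, where 0.0303% of all genes tested passed (0.00758% rose and 0.0227% fell). An unadjusted p under 0.05 was reached by 970 of the 13199 genes tested and by 4 of the 35 members. These 4 were PNPLA3 (microsystem minus Petri 0.71, 95% interval 0.22 to 1.20, adjusted p = 0.445), ACSS2 (0.56, 0.13 to 0.98, adjusted p = 0.538), CIDEC (-0.64, -1.14 to -0.15, adjusted p = 0.545) and GPAT3 (0.55, 0.02 to 1.09, adjusted p = 0.671). For ACSL1, with near-equal effects in both cultures, the interval of the difference was -0.26 to 0.32. Across the members the treatment effects in the 2 cultures had the same sign for 21 of 35 (60%), against 73% over all genes tested, and the culture differences in treated and untreated cells had the same sign for 30 of 35 (85.7%), against 83.9%.

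Over the 4 culture and treatment comparisons 27 members passed for culture at least once, against 53.1% of all genes, and 9 of these also for treatment (15.2% of all genes passed for treatment, 11% for both). In the fit without a replicate block 8 members passed in none, against 42.6% of all genes. The 8 were SREBF1, THRSP, LPIN1, LPIN3, DGAT2, PLIN2, PLIN3 and CIDEB, whose log2 differences lay between -0.36 (CIDEB) and 0.29 (LPIN3), and whose smallest adjusted p was 0.081 (LPIN3). CIDEB passed for treatment in Petri dishes with the block, as given above, and THRSP, LPIN3, DGAT2, PLIN2 and CIDEB each passed in some comparison once 1 array was left out.

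Other genes of the pathway, 64 outside the list of members, were taken from general knowledge, and 47 of them were tested. In treated cells 15 of the 47 rose in the microsystem and 10 fell (31.9% and 21.3%, against 22.6% and 18.9% of all genes), with a median of 0.03. In untreated cells 15 rose and 8 fell (31.9% and 17%, against 26.5% and 18.3% of all genes), with a median of 0.10. All 4 genes of citrate export and NADPH supply rose in both, where 19.2% of all genes did so. IDH1, whose cytosolic isocitrate dehydrogenase yields NADPH, rose by 2.42 ± 0.12 in treated and 2.02 ± 0.12 in untreated cells, and CYB5A, the cytochrome b5 that passes electrons to desaturases, by 1.26 ± 0.13 and 1.11 ± 0.13. LIPA, the lysosomal acid lipase, rose by 1.53 ± 0.12 in untreated cells and ACSS1, the mitochondrial acetyl-CoA synthetase, by 1.11 ± 0.23. In treated cells LIPA averaged 10.31 in the microsystem and 9.27 in Petri dishes, and ACSS1 averaged 7.62 and 6.81. Of 15 SREBP and lipogenic regulators 3 rose and 5 fell in treated cells (20% and 33.3%, against 22.6% and 18.9% of all genes). In untreated cells 2 rose and 5 fell (13.3% and 33.3%, against 26.5% and 18.3% of all genes). Among them MLXIPL rose by 1.11 ± 0.13 in treated and 0.96 ± 0.13 in untreated cells. Named after their values were seen, MLYCD also rose in both, and PPARG, INSIG2, SCAP and PRKAA1 fell in both. PPARG fell the most, by 0.96 in treated and 1.09 in untreated cells (SE 0.12 in both). HILPDA, a droplet protein that inhibits adipose triglyceride lipase, fell by 1.05 in treated and 0.73 in untreated cells (SE 0.18 in both).

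**Figure D4:**
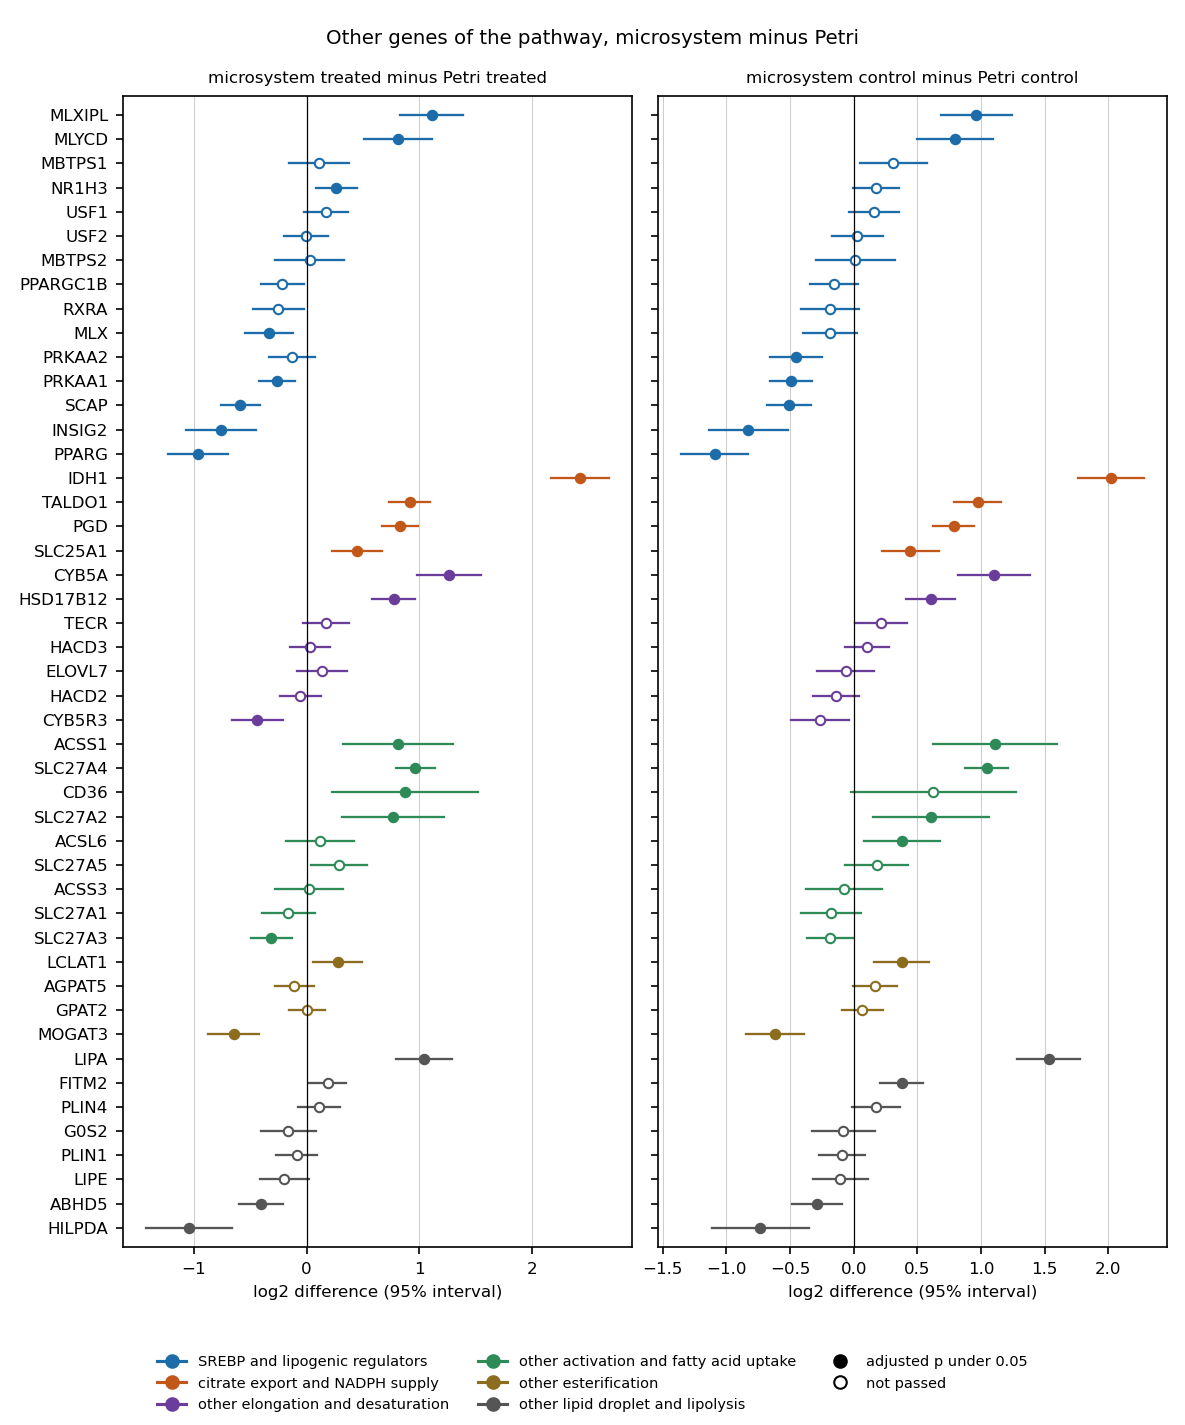
Log2 difference (x axis), microsystem minus Petri, of 47 other genes of the pathway in treated cells on the left and in untreated cells on the right, with 95% intervals and filled points at an adjusted p under 0.05. The 4 genes of citrate export and NADPH supply are filled to the right of 0 in both panels, with IDH1 farthest right.

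With treatment, 2 of the 47 rose in the microsystem and 0 fell (4.26% called, against 9.06% of all genes), and 4 rose and 2 fell in Petri dishes (12.8%, against 10.4%). PRKAA2, a catalytic subunit of the AMP-activated kinase that inhibits acetyl-CoA carboxylase, rose by 0.35 ± 0.09 in the microsystem, and ELOVL7, an elongase of very long saturated chains, by 0.56 ± 0.10. In Petri dishes IDH1 fell by 0.71 (SE 0.12) and CYB5A by 0.50 (SE 0.13), while LIPA rose by 0.46 ± 0.12 and MBTPS1, a protease that processes SREBP, by 0.42 ± 0.12. The other 2 rises in Petri dishes, named after their values were seen, were those of ELOVL7 (0.37 ± 0.10) and FITM2 (0.31 ± 0.08), a gene of droplet formation.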

How the data were processed

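RNA of 12 HepG2C3A samples was measured on Affymetrix arrays. The log2 intensities were used as deposited; per the submitters' processing notes the authors obtained them in Expression Console (Affymetrix) by RMA, a method that corrects background, normalizes by quantiles and summarises probes. Neither software versions nor a build are stated there. Of 32321 probe sets, 19158 had 1 symbol in the platform annotation, 1388 several and 11775 none, and symbols were updated through gene identifiers. The brightest probe set by mean stood for each of 18404 genes, and each of the 35 measured members had just 1. A gene stayed in the test if 3 or more arrays exceeded their 40th percentile, which left 13199. Group means were modelled over the 12 arrays together with limma 3.58.1 under R 4.3.3 (residual df 8, prior df 5.35). Tests were two-sided, with Benjamini-Hochberg adjustment over the 13199 genes and a threshold of 0.05. ± is the SE of the fit unless SD is written. The procedure was tested on simulated data. Precision is limited by having 3 arrays a group; 3 against 3 in an exact permutation test cannot give less than p = 0.1.

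The members, lists, tests and alternatives were chosen with earlier results of these data known. Values on each array were planned for SREBF1, FASN, SCD, DGAT2 and PLIN2 and for up to 4 members of each step with the largest called difference; other called members are named with their difference, and array values of FADS1, FADS3 and ELOVL5 were added after they were seen. Up to 4 other pathway genes per comparison with the largest called difference are named. Pairing by replicate number was checked through the correlation, across genes, of what 2 arrays of equal number deviate from their groups. It came to 0.48, 0.19 and 0.31 between treated and control Petri arrays, each over 0.1, so those were taken as pairs. It was 0.11, 0.071 and 0.60 between treated and control microsystem arrays, 0.14, -0.14 and 0.13 between cultures in treated cells and 0.18, -0.034 and 0.13 in untreated cells. The main fit held no replicate block and did not use the Petri pairing. Counts and adjusted p values come from that fit unless a block or another alternative is named. The alternatives are named in the closing section.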

Additional observations from a re-analysis of the deposited data

How the results depend on the processing

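None of the 61 calls of members changed direction under the alternatives run, which were the replicate block, fits to the compared arrays alone, equal medians, quantile scaling, no filter or one at the 60th percentile, probe sets averaged or taken singly, a variance trend, array weights, each array left out and both microsystem arrays numbered 3 left out. Of the calls for culture, 19 of 25 in treated and 18 of 22 in untreated cells held under each of them, against 1 of 8 (ACSL1) for treatment in the microsystem and 3 of 6 (FADS1, FADS3 and ACSL1) in Petri dishes. The count of 8 members for treatment in the microsystem became 3 in a fit to the compared arrays alone, 5 with probe sets taken singly and 4 without both arrays numbered 3, and the count of 6 in Petri dishes became 13 with array weights. The cause was not tested. With single arrays left out the members called were 3 to 9 for treatment in the microsystem, 4 to 7 in Petri dishes, 21 to 25 for culture in treated cells, 19 to 24 in untreated cells and 0 to 0 for the difference of effects. THRSP for culture in untreated cells ranged between -0.278 without Petri control 1, where it passed (adjusted p = 0.0494), and 0.0218 without Petri control 3. A replicate block over all arrays gave 8, 6, 25, 23 (LPIN2 added) and 0 in that order. The block within each culture gave 11 in the microsystem (FADS2, AGPAT2 and CIDEB added, though these numbers were not taken as pairs), 9 in Petri dishes and 0 for the difference. THRSP, on some arrays under the 40th percentile, is limited by signal over background.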
